A study of Mus musculus with 19 samples.

Results

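The genes followed here are 9 proneural and neurogenic precursor genes of the embryonic mouse retina, Atoh7, Neurog2, Neurod1, Neurod4, Olig2, Hes6, Insm1, Gadd45a and Btg1. They were chosen by name, as the rows of the count tables whose Ensembl identifier carries one of these symbols in the GRCm38 annotation. The rule itself uses no measured value, but the 9 symbols were put together with earlier results of these data known. All 9 were found among the 47069 genes listed, and all 9 passed the filter on low counts, which left 15941 genes for testing.

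The study compared retinal ganglion cells (RGCs) whose axons stay on their own side of the brain, called iRGCs, with RGCs whose axons cross the midline, called cRGCs. GFP-positive cells were sorted from dissociated E16.5 (embryonic day) retinas, and RNA was sequenced from 3 libraries per population, with 28193178 to 33638083 reads assigned to genes in each. Another 13 samples, of ATAC-seq, were not analysed here.

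Both populations carried the CAG-[Stop]-Sun1-GFP cassette in the Rosa26 locus, which gives a GFP-tagged nuclear envelope protein once Cre has removed the stop. The labels give C57/DBA F1 as the strain, WT as the genotype and pooled male and female embryos for all 6 libraries. The iRGCs came from the ET33 Slc6a4-Cre line, in which the gene of the serotonin transporter drives Cre. The cRGCs came from the Pou4f2-Cre line, a Cre inserted in the Brn3b (Pou4f2) gene, after the ventrotemporal (VT) region of the retina had been cut away. Removal of the stop is permanent, so GFP marks every cell that once made Cre and all of its daughters, whether or not the driver gene is still active. The Cre line and the region of the retina changed together with the population, and their effects cannot be told apart. The labels do not say whether the libraries of a population came from separate litters, so the p-values measure the spread between these samples, which may be technical.

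In the developing retina, proneural factors of the basic helix-loop-helix (bHLH) family bind DNA at E-boxes as dimers with E proteins and push dividing progenitors towards becoming neurons. Cells that make them also display Notch ligands, and Notch activity in the neighbouring cells turns on the Hes repressors, which hold those neighbours in the progenitor state. The factors act in a brief window around the last division, and most are shut off again as the neuron matures.

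The driver genes were looked at first, since they check the labels. Slc6a4 was at 2.06, 33.4 and 116 CPM (counts scaled to library size, with edgeR's TMM factors) in iRGC replicates 1, 2 and 3, and at 48.1, 35.4 and 30.5 CPM in the cRGC libraries. Slc6a4 was thus lower in the library labelled iRGC replicate 1 than in any cRGC library, and above all of them only in iRGC replicate 3 (log2 fold change 0.41, SE 0.93, edgeR adjusted p = 0.77). Pou4f2, a transcription factor of differentiating RGCs, was at 74.7, 133 and 98.3 CPM in iRGCs and at 191, 196 and 293 CPM in cRGCs (log2 fold change -1.15, SE 0.23, edgeR adjusted p = 0.0042). Defining markers of endothelial and mural cells stood out in iRGC replicate 2, with Pecam1 at 53.04 CPM and Rgs5 at 93.8 CPM, while iRGC replicate 3 had 0.284 and 2.24 CPM. For these reasons the 9 genes were also compared from iRGC replicate 3 alone against the 3 cRGC libraries, a comparison added after the values were seen, in which the lone library is assumed to vary as the cRGC libraries do. Pairs of iRGC libraries differed more than pairs of cRGC libraries did (chi-square of counts per degree of freedom 46.5 to 70.4 against 25.6 to 32.9). This comparison is therefore read for the effect sizes of the 9 genes only.

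All 9 genes were higher in iRGCs than in cRGCs, by 1.96-fold for Btg1 up to 6.04-fold for Olig2. For each of them the lowest iRGC library lay above the highest cRGC library. Of all tested genes, 46.4% were called, 23.3% higher in iRGCs and 23.1% lower, at an adjusted p under 0.1 (edgeR quasi-likelihood test, Benjamini-Hochberg adjustment over the 15941 genes), and 27.1% were higher with no overlap between the libraries. The median log2 fold change was 1.65 over the 9 genes and -0.0031 over all tested genes. None of the 9 was called lower by edgeR, by DESeq2 or by limma voom, and none had an unadjusted p under 0.05 in that direction. With iRGC replicate 3 alone, the log2 fold changes were 1.95 for Neurod1, 2.52 for Neurod4, 2.66 for Olig2, 1.16 for Insm1 and 1.49 for Gadd45a, with the other 4 given beside their values. Scaling by library totals in place of TMM moved the median of all genes by 0.21 on the log2 scale and the share of higher calls among all calls from 50.1% to 64.2%, and the 9 genes were called higher under both. In sorted bulk samples such as these, fewer cells that make a transcript and less of it per cell cannot be told apart.

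**Figure D1:**
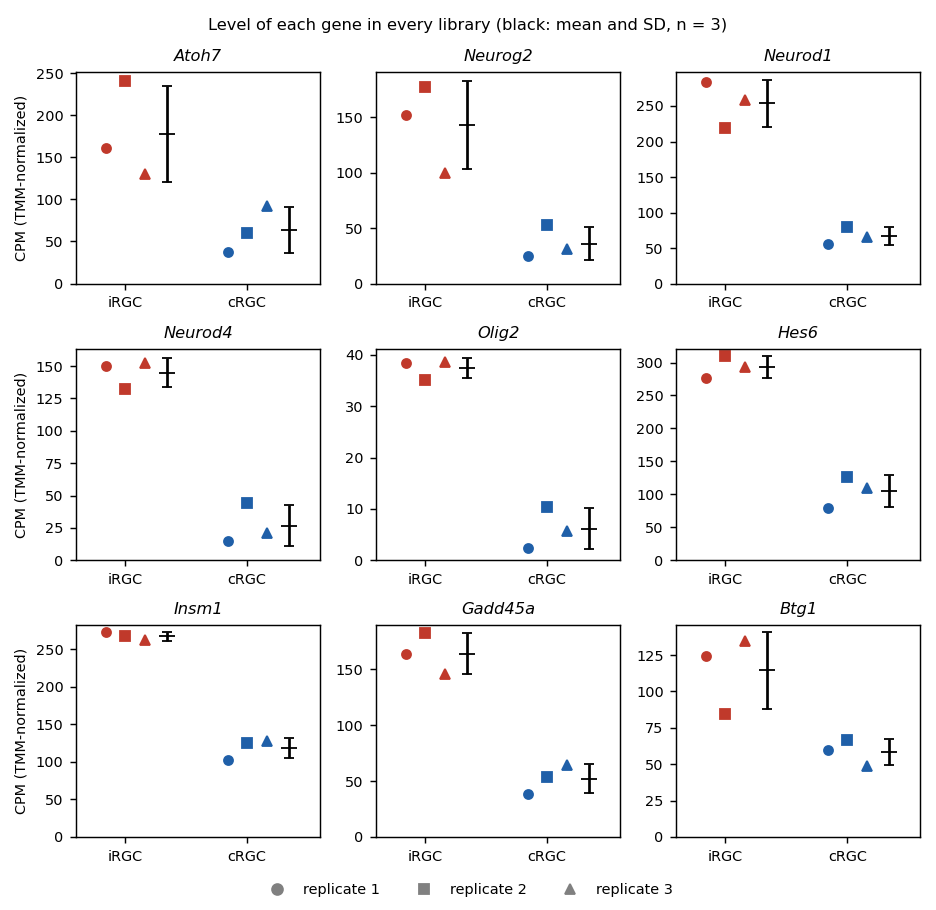
Level of each of the 9 genes, as TMM-normalized CPM on a linear axis from 0, in the 3 iRGC libraries (red) and 3 cRGC libraries (blue), with marker shapes for the replicate number and a black bar for the mean and SD. In every panel the 3 red points lie above the 3 blue points, with the narrowest gap for Btg1 (84.6 against 66.7 CPM).

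Among the bHLH activators, Atoh7 is required for progenitors to become RGCs. It lies in 1 exon at chr10:63099651-63101279 on the + strand of GRCm38 and was at 161, 241 and 130.2 CPM in iRGC replicates 1 to 3 and at 37.9, 60.3 and 92.1 CPM in cRGC replicates 1 to 3. Atoh7 was the member with the widest spread within iRGCs, where the highest library, replicate 2, was 1.85 times the lowest, replicate 3. Its log2 fold change was 1.48 (SE 0.32, edgeR adjusted p = 0.0061), and 1.05 with iRGC replicate 3 alone. Neurog2, an activator made by progenitors about to leave the cell cycle, lies at chr3:127633135-127635631 on the + strand and was at 151, 177 and 99.4 CPM in iRGCs and at 24.5, 52.4 and 31.1 CPM in cRGCs. Neurog2 and Atoh7 shared the order of the iRGC libraries, with replicate 2 highest and replicate 3 lowest, but not that of the cRGC libraries. The log2 fold change of Neurog2 was 1.99 (SE 0.30, edgeR adjusted p = 0.00099), and 1.48 with iRGC replicate 3 alone.

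Neurod1 and Neurod4 act after the proneural factors, in cells that are turning into neurons, and take part in the making of photoreceptor and amacrine cells. Neurod1, at chr2:79452521-79456751 on the - strand, was at 284, 219 and 258 CPM in iRGCs and at 55.3, 80.2 and 66.1 CPM in cRGCs. The 2 populations were well apart, the lowest iRGC library being 2.73 times the highest cRGC library, and the log2 fold change was 1.92 (SE 0.16, edgeR adjusted p = 0.00020). Of the exonic bases of Neurod1, 13.0% are shared with the annotated genes Cerkl and Gm26755, and reads on those bases may have stayed uncounted. Neurod4, at chr10:130268152-130280240 on the - strand, was at 150.4, 132 and 152 CPM in iRGCs and at 14.8, 44.6 and 20.8 CPM in cRGCs. The iRGC libraries were close together and the cRGC libraries were not, with replicate 2 at 3.02 times replicate 1. The log2 fold change of Neurod4 was 2.44 (SE 0.35, edgeR adjusted p = 0.00079), and 3.04 without cRGC replicate 2.

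Olig2, a bHLH factor known from the spinal cord for motor neurons and oligodendrocytes, is made in the retina by progenitors near their last division. At chr16:91225457-91228677 on the + strand, it was at 38.4, 35.1 and 38.7 CPM in iRGCs and at 2.35, 10.4 and 5.78 CPM in cRGCs. It had the largest fold change of the 9 genes, a log2 fold change of 2.60 (SE 0.44, edgeR adjusted p = 0.0017), which became 3.20 without cRGC replicate 2. It was also the least even across the cRGC libraries, with a coefficient of variation of 65.4% against 5.22% in iRGCs. Markers of the oligodendrocyte lineage were looked at beside it. Sox10, the factor that defines that lineage, had no read in any of the 6 libraries, and Olig1 was at 0.708, 0.525 and 0.473 CPM in iRGCs and at 0, 0 and 0.194 CPM in cRGCs, without overlap but not past the test (log2 fold change 3.02, edgeR adjusted p = 0.17). Of the 6 genes listed for that lineage, 5 were tested, none was called higher by edgeR (0 also at an unadjusted p under 0.05), but 1 was by DESeq2, by limma voom and by edgeR with library totals, without a filter, with the replicate block or without iRGC replicate 1, cRGC replicate 2 or cRGC replicate 3. Mbp, a myelin protein gene and the most abundant per kilobase, was called lower (log2 fold change -0.56, SE 0.18, edgeR adjusted p = 0.031), and no gene of the list was called lower with library totals, without iRGC replicate 2, without cRGC replicate 3 or with iRGC replicate 3 alone. The list summed to 76.2, 64.0 and 76.6 CPM in iRGCs and to 95.3, 79.3 and 103 CPM in cRGCs, and its part in the difference of Olig2 was not tested.

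Hes6 and Insm1 work downstream of the proneural factors. Hes6 belongs to the Hes family by sequence but counters Hes1 and so favours differentiation. It has 4 exons at chr1:91411483-91414038 on the - strand and was at 277, 309.6 and 293 CPM in iRGCs and at 78.6, 126 and 109 CPM in cRGCs. Its log2 fold change was 1.49 (SE 0.17, edgeR adjusted p = 0.00028), and 1.496 with iRGC replicate 3 alone. Insm1 is a zinc finger factor of newly formed neurons and neuroendocrine cells, with 1 exon at chr2:146221921-146225020 on the + strand. It was at 273, 267 and 262 CPM in iRGCs and at 103, 124 and 127 CPM in cRGCs, the most even of the 9 genes in both populations, with coefficients of variation of 2.16% and 11.5%. The log2 fold change of Insm1 was 1.18 (SE 0.11, edgeR adjusted p = 0.00021), smaller than that of any member but Btg1 and with the smallest error.

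Gadd45a and Btg1 encode proteins that restrain the cell cycle. Gadd45a responds to DNA damage and stress through p53 and is also made as progenitors become neurons. At chr6:67035096-67037457 on the - strand, it was at 164, 182 and 146 CPM in iRGCs and at 38.6, 53.9 and 64.3 CPM in cRGCs. The lowest iRGC library was 2.27 times the highest cRGC library, and the log2 fold change was 1.65 (SE 0.19, edgeR adjusted p = 0.00029). Of its exonic bases, 19.1% are shared with the annotated gene E230016M11Rik, and the strand setting of the counting is not given in the sources used here. Btg1, an antiproliferative protein of the Btg and Tob family, lies at chr10:96617006-96622809 on the + strand. It was at 124, 84.6 and 134 CPM in iRGCs and at 59.9, 66.7 and 48.7 CPM in cRGCs, so iRGC replicate 2 came close to cRGC replicate 2. The log2 fold change of Btg1 was 0.97 (SE 0.19, edgeR adjusted p = 0.0037), the smallest of the 9, and 1.22 with iRGC replicate 3 alone, its highest iRGC library.

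The cRGC libraries were ordered alike for most of the 9 genes. Replicate 1 was the lowest cRGC library for 8 genes, with Btg1 as the exception, and replicate 2 was the highest for 6, namely Neurog2, Neurod1, Neurod4, Olig2, Hes6 and Btg1. Atoh7, Insm1 and Gadd45a were highest in cRGC replicate 3. No such common order was seen among the iRGC libraries, where replicate 1 was highest for 2 genes, replicate 2 for 4 and replicate 3 for 3. Summed over the 9 genes, the level was 1624, 1648 and 1513 CPM in iRGC replicates 1 to 3 and 414, 619 and 565 CPM in cRGC replicates 1 to 3.

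Levels of different genes were compared per kilobase of exon. The length was that of the merged exons of all annotated transcripts of a gene, bases shared with other genes included. Orders by this measure, here and in the gene lists, depend on that length, since the transcripts in use were not determined. In iRGCs Hes6 came first, at 162 ± 8.96 CPM per kilobase (SD, n = 3), and its libraries lay above those of every other member. Atoh7 (109 ± 35.1), Neurod1 (93.0 ± 11.99), Gadd45a (92.9 ± 10.4) and Insm1 (86.2 ± 1.86 CPM per kilobase) followed, each overlapping its neighbour. Neurog2 (64.1 ± 17.9) and Neurod4 (43.3 ± 3.38 CPM per kilobase) overlapped each other below them. Btg1, at 21.7 ± 5.00, and Olig2, at 14.8 ± 0.771 CPM per kilobase, were lowest and did not overlap. In cRGCs Hes6 was again first (57.8 ± 13.3) and Olig2 last (2.44 ± 1.595 CPM per kilobase), and between them only Neurod4 and Olig2 were neighbours without overlap. Neurod1 came before Insm1 in iRGCs, with overlap, and after it in cRGCs, without.

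Promoter sequences are shown because E-boxes are the sites that proneural factors bind, the activators among the 9 genes included. RefSeq start sites on GRCm38.p6 gave windows of 250 bases upstream for 8 of the 9 genes, 10 windows in all, with 2 starts each for Neurod4 and Hes6. The E-box (CANNTG, which reads the same on both strands) was found in the windows of 4 genes, Atoh7, Neurod1, Hes6 and Gadd45a, and in none of those of Neurog2, Neurod4, Olig2 and Btg1. Of 32817 windows of this length over all genes, 66.2% hold one, so the share among the 8 genes was not above that of promoters in general. The stretches around the E-boxes that lie outside annotated exons are given 5′ to 3′ on the strand of the gene, with the E-boxes in capitals. They lie at chr10:63099537-63099602 (+) for Atoh7, chr2:79456843-79456886 (-) for Neurod1, chr1:91414167-91414288 (-) and chr1:91413337-91413402 (-) for the upstream and the downstream start of Hes6, and chr6:67037458-67037504 (-) for Gadd45a.
Atoh7: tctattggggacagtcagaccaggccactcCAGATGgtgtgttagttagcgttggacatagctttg
Neurod1: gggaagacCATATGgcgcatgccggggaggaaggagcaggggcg
Hes6, upstream start: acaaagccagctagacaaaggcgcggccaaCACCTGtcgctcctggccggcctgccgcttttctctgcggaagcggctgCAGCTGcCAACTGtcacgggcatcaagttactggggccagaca
Hes6, downstream start: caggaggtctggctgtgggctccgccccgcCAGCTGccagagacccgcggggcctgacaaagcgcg
Gadd45a: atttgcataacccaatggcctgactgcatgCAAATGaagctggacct

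Hes6 was the member with the most E-boxes outside exons, 3 before its upstream start, of which CAGCTG and CAACTG are separated by a single base, and 1 before its downstream start. The form CAGCTG is in 13.0% of all windows, the form CAGATG of the Atoh7 window in 14.5% and the form CATATG of the Neurod1 window in 3.47%. CAGCTG and CATATG read the same on both strands, and CAGATG was searched on both. Other letters searched on both strands were the N-box CACNAG, bound by Hes repressors, which overlaps none of these E-boxes and was found for 2 genes, Neurod4 and Hes6, against 36.7% of all windows. The core TGGGAA of the Notch effector Rbpj was found for 1 gene, Atoh7, against 21.6% of all windows. These are matches of letters, and whether any factor binds there was not measured.

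The other proneural bHLH factors were mixed. Of 14 genes listed, 9 were tested, 3 were called higher in iRGCs and 2 lower. Atoh8 rose with a log2 fold change of 2.57 (SE 0.52, edgeR adjusted p = 0.0040), as did Ptf1a, a factor of amacrine and horizontal cells that shares 40.4% of its exonic bases with Ptf1aos (2.38, SE 0.29, edgeR adjusted p = 0.00040), and Bhlhe22 (1.17, SE 0.26, edgeR adjusted p = 0.0073). Nhlh1 and Nhlh2, bHLH factors of neurons past their last division, went the other way, with log2 fold changes of -1.35 (SE 0.25, edgeR adjusted p = 0.0029) and -1.08 (SE 0.22, edgeR adjusted p = 0.0042). Nhlh2, the most abundant of the list per kilobase, was at 85.8, 79.3 and 127 CPM in iRGCs and at 187, 166 and 261 CPM in cRGCs, without overlap. Neurog3 and Olig3 had no read in any library. Neurog1, closely related to Neurog2, was at 0.933, 4.51 and 0.662 CPM in iRGCs and at 0.192, 0.656 and 0.484 CPM in cRGCs and did not pass the test (edgeR adjusted p = 0.13).

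Partners and repressors of the bHLH factors were higher in iRGCs almost throughout, with 11 of 12 called higher and none lower, a median log2 fold change of 1.99. The largest changes of this list were those of the Id genes, whose proteins hold E proteins away from the proneural factors. Id3 was at 198, 195 and 181 CPM in iRGCs and at 10.6, 33.9 and 19.9 CPM in cRGCs (log2 fold change 3.15, SE 0.35, edgeR adjusted p = 0.00028). Id2 followed at 2.88 (SE 0.34, edgeR adjusted p = 0.00035) and Id1, the most abundant of the list per kilobase on the mean of both populations, at 2.77 (SE 0.41, edgeR adjusted p = 0.00094). Id4 was the gene that did not pass, at 77.0 ± 21.9 CPM against 55.9 ± 10.2 CPM in cRGCs (SD, n = 3, edgeR adjusted p = 0.14). The repressor Hes1 was at 143, 159 and 77.5 CPM in iRGCs and at 16.4, 35.9 and 20.7 CPM in cRGCs (log2 fold change 2.38, SE 0.34, edgeR adjusted p = 0.00076). The E protein Tcf3 changed less, from 113 ± 12.4 CPM in cRGCs to 229 ± 25.1 CPM in iRGCs (SD, n = 3, log2 fold change 1.01, SE 0.13, edgeR adjusted p = 0.00044). In cRGCs alone, Tcf3 had a higher mean (28.1 CPM per kilobase) than Id1 (24.9 CPM per kilobase).

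Of 13 genes of Notch signalling, 10 were called higher in iRGCs and 2 lower. Lfng, which adds sugars to Notch, had a log2 fold change of 2.65 (SE 0.33, edgeR adjusted p = 0.00044). Notch1, the most abundant of these genes on the mean of both populations, was at 687, 519 and 638 CPM in iRGCs and at 72.9, 147 and 77.2 CPM in cRGCs (log2 fold change 2.64, SE 0.27, edgeR adjusted p = 0.00023). The ligand Dll4, made in the retina by cells leaving the cycle, was close to both (2.62, SE 0.31, edgeR adjusted p = 0.00034). The ligand Jag2 (-1.57, SE 0.21, edgeR adjusted p = 0.00057) and Numbl, which encodes a relative of the Notch inhibitor Numb (-0.89, SE 0.13, edgeR adjusted p = 0.00080), were lower. Jag1 did not pass the test, with 34.2 CPM in iRGC replicate 2 and 9.62 and 10.2 CPM in the other iRGC libraries (edgeR adjusted p = 0.43).

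The relatives of Gadd45a and Btg1 and the Cdk inhibitors did not move as a block, with 6 of 9 called higher and 2 lower. Btg2 was at 283, 396 and 239.7 CPM in iRGCs and at 52.0, 75.3 and 80.7 CPM in cRGCs (log2 fold change 2.14, SE 0.22, edgeR adjusted p = 0.00024). Gadd45g, at 18.8 ± 4.37 against 4.60 ± 1.06 CPM (SD, n = 3), had a log2 fold change of 2.03 (SE 0.28, edgeR adjusted p = 0.00064). Gadd45b was also called, at levels of a few CPM (2.70, SE 0.89, edgeR adjusted p = 0.038). The Cdk inhibitor genes were split, with Cdkn1a (-1.05, SE 0.40, edgeR adjusted p = 0.068) and Cdkn1c (-0.78, SE 0.15, edgeR adjusted p = 0.0028) lower in iRGCs and Cdkn1b higher (0.74, SE 0.11, edgeR adjusted p = 0.0010). Cdkn1c was the most abundant of the list per kilobase on the mean of both populations and in cRGCs. In iRGCs Btg2 was above it, at 112 against 72.2 CPM per kilobase. Of the exonic bases of Cdkn1c, 30.7% are shared with Gm44732. Btg3 did not pass (edgeR adjusted p = 0.26), while limma voom called 7 genes of the list higher and 2 lower. Gadd45a, called higher, is a target of p53 too. Among 10 other p53 target genes, listed without it, 2 were higher and 3 lower. These were Sesn2 (1.45, SE 0.27, edgeR adjusted p = 0.0029) and Mdm2 (0.40, SE 0.11, edgeR adjusted p = 0.016) on the one side, and Bbc3 (-1.42, SE 0.25, edgeR adjusted p = 0.0020), Cdkn1a and Ccng1 (-0.47, SE 0.15, edgeR adjusted p = 0.032) on the other. Their median log2 fold change was -0.21, and Bax, the most abundant per kilobase, did not pass (edgeR adjusted p = 0.14).

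Factors and structural genes of early neurons were mostly lower in iRGCs, with 12 of 16 called lower and 2 higher and a median log2 fold change of -1.30. Dcx, a microtubule protein of migrating young neurons, was at 264, 349.6 and 429 CPM in iRGCs and at 1424, 1239.8 and 1451.5 CPM in cRGCs. Its log2 fold change was -1.98 (SE 0.17, edgeR adjusted p = 0.00020). Myt1l, a repressor of non-neuronal genes (-2.22, SE 0.41, edgeR adjusted p = 0.0027), and Elavl4, an RNA-binding protein of neurons (-1.95, SE 0.20, edgeR adjusted p = 0.00024), were lower by similar amounts. The tubulin gene Tubb3 was the most abundant per kilobase (-1.63, SE 0.20, edgeR adjusted p = 0.00043). St18 (1.83, SE 0.24, edgeR adjusted p = 0.00052) and Cbfa2t2 (0.59, SE 0.11, edgeR adjusted p = 0.0030) were the genes called higher. Insm2, the close relative of Insm1, was at 12.4 ± 2.88 CPM against 12.8 ± 3.39 CPM in cRGCs (SD, n = 3), with a log2 fold change of -0.04 (SE 0.28, edgeR adjusted p = 0.92), and Srrm4 did not pass either.

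**Figure D2:**
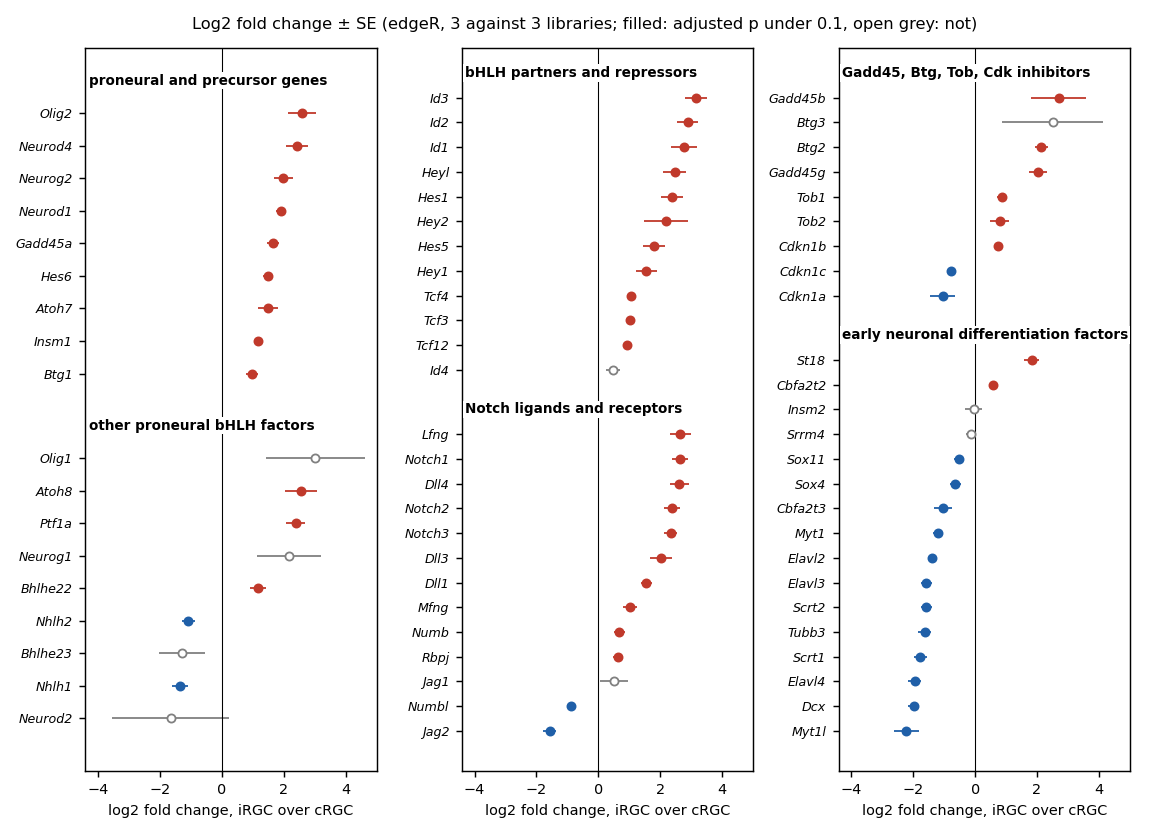
Log2 fold change of iRGCs over cRGCs with its SE from edgeR, for the 9 genes and the tested genes of 5 related lists, 3 libraries against 3, where filled points passed an adjusted p of 0.1 and open grey points did not. The 9 genes and most bHLH partners and Notch genes lie to the right of 0, while 12 of the 16 early neuronal genes lie to the left with filled points.

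Markers of dividing progenitors moved with the 9 genes. Of 13 retinal progenitor markers, 12 were called higher in iRGCs and none lower, with a median log2 fold change of 2.33. Their summed level was 7376, 6739 and 5789 CPM in iRGC replicates 1 to 3 and 1027, 1963 and 1668 CPM in cRGC replicates 1 to 3. The order of the cRGC libraries, replicate 1 lowest and replicate 2 highest, is the one seen for Neurog2, Neurod1, Neurod4, Olig2 and Hes6. The summed cell cycle and photoreceptor precursor genes had that cRGC order too. Among iRGCs the progenitor sum fell from replicate 1 to replicate 3, an order that none of these named genes had. Ccnd1, a cyclin of cycling progenitors, was the most abundant marker, and Sfrp2 (2.92, SE 0.54, edgeR adjusted p = 0.0026), Fgf15 (2.73, SE 0.35, edgeR adjusted p = 0.00048) and Slc1a3 (2.64, SE 0.27, edgeR adjusted p = 0.00024) had the largest log2 fold changes. Vim was the marker that did not pass. All 15 cell cycle genes were called higher, with a median log2 fold change of 2.45, led by Rrm2 (2.71), Mcm3 (2.67) and Aurkb (2.65). They summed to 4447, 3716 and 3542 CPM in iRGCs and to 432, 1026 and 633 CPM in cRGCs, with Top2a as the most abundant gene. The part of these levels in the difference of the 9 genes was not tested.

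Ganglion cell markers went the other way. Of 15, 13 were called lower in iRGCs and none higher, with a median log2 fold change of -1.94 and sums of 2472, 3441 and 5312 CPM in iRGCs and 13639, 12288 and 15027 CPM in cRGCs. Pou4f1 (-2.28), Isl2 (-2.15) and Rbpms (-2.0) changed most, and Gap43, a growth cone protein, was the most abundant per kilobase. Eya2 and Thy1 did not pass. Every library thus held ganglion cell transcripts, and iRGC replicate 3 held the most among iRGCs.

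Markers of other retinal neurons that Neurod1 and Neurod4 serve were higher in iRGCs too. Of 8 photoreceptor precursor genes, 6 were tested, 5 were called higher and 1 lower, and they summed to 807, 641 and 626 CPM in iRGCs and to 169.5, 256 and 206 CPM in cRGCs. Otx2, the factor at the head of the photoreceptor programme and the most abundant of the list, was at 269, 213 and 221 CPM in iRGCs and at 30.9, 68.9 and 36.1 CPM in cRGCs. Its log2 fold change was 2.37 (SE 0.28, edgeR adjusted p = 0.00036), beside those of Prdm1 (2.35) and Crx (2.1), while Rxrg was lower (-1.08). Of 10 amacrine and horizontal cell genes, 8 were called higher and none lower, led by Ptf1a (2.38), Prdm13 (2.38) and Slc6a9 (1.66), with Lhx1 and Gad1 not passing. These summed to 479, 421 and 574 CPM in iRGCs and to 172, 229 and 157 CPM in cRGCs, and Tfap2b was the most abundant. Their part in the difference of Neurod1 and Neurod4 was not tested.

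Lists for cells from outside the neural retina were looked at too, although the cells had been sorted for GFP. The 10 endothelial and mural genes summed to 473, 766 and 452 CPM in iRGCs and to 90.1, 110.1 and 74.0 CPM in cRGCs, and 8 of 8 tested were called higher. Kdr, the most abundant, made up most of the sum in every library but iRGC replicate 2 and was at 366, 320.5 and 418 CPM in iRGCs and at 83.7, 103 and 67.6 CPM in cRGCs. The defining marker Cdh5 was at 15.2, 81.3 and 0.158 CPM in iRGCs and had no read in cRGCs, and Adgrf5 was at 11.2, 50.8 and 0.378 CPM against no read. Kdr did not follow these markers, so the summed level, mostly Kdr outside iRGC replicate 2, is not a measure of endothelial cells. Rgs5 and Cd34 were likewise highest in iRGC replicate 2. In iRGC replicate 3, Cdh5, Pecam1 and Adgrf5 were each below 1 CPM, while Kdr was at its highest level of all libraries. The part of endothelial and mural transcripts in the difference of the 9 genes was not tested. Erythroid genes summed to 12.2, 92.7 and 15.2 CPM in iRGCs and to 0, 5.11 and 0.290 CPM in cRGCs, with Hbb-bs most abundant and 4 of 4 tested called higher. Microglial genes summed to 13.1, 21.2 and 15.8 CPM against 0.654, 4.18 and 1.45 CPM, with C1qa most abundant per kilobase and 3 of 5 tested called higher. Pigment epithelium genes summed to 2.03, 7.63 and 3.50 CPM against 1.69, 4.04 and 2.58 CPM, with Pmel most abundant per kilobase and none of 4 tested called by edgeR (0 also at an unadjusted p under 0.05, and 1 each by DESeq2 and limma voom, higher). In the other lists for which no gene was called in 1 direction by edgeR, none had an unadjusted p under 0.05 in that direction and none was called so by DESeq2 or limma voom.

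Genes that respond to tissue dissociation differed as well, and Gadd45a and Btg1 are themselves known to respond to stress. Of 10, 7 were called higher in iRGCs and none lower, and they summed to 1657, 3147 and 1263 CPM in iRGCs and to 574, 669 and 714 CPM in cRGCs. Fos, the most abundant, was at 447, 1016 and 320.4 CPM in iRGCs and at 109.7, 163 and 156 CPM in cRGCs. The largest log2 fold changes were those of Atf3 (3.95, SE 0.51, edgeR adjusted p = 0.00049), Fosb (2.71, SE 0.27, edgeR adjusted p = 0.00022) and Junb (2.16, SE 0.37, edgeR adjusted p = 0.0019). Dusp1, Hspa1a and Hspa1b did not pass. iRGC replicate 2, the highest library of this list, was the highest iRGC library for Gadd45a and the lowest for Btg1. Without it the log2 fold change was 1.57 for Gadd45a and 1.15 for Btg1, and the part of dissociation in these differences was not tested.

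**Figure D3:**
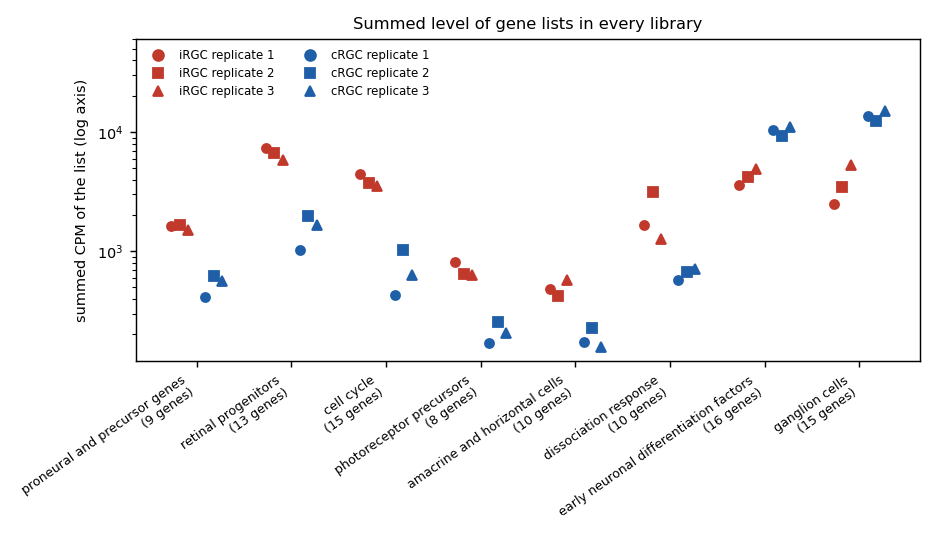
Summed CPM on a log axis of the 9 genes and of 7 lists in each of the 6 libraries, red for iRGCs and blue for cRGCs, with marker shapes for the replicate number. The 9 genes, progenitor, cell cycle, photoreceptor, amacrine and horizontal cell and dissociation genes are higher in the red libraries, the early neuronal and ganglion cell genes in the blue ones.

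Ratios between functionally linked genes within a library do not depend on the scaling between libraries. Of 6 ratios compared, that of Btg1 to Btg2 separated the populations without overlap, at 0.439, 0.214 and 0.561 in iRGCs and at 1.15, 0.886 and 0.603 in cRGCs. Its exact permutation test, two-sided, gave p = 0.1, the smallest that 3 libraries against 3 allow, and 0.3 after Benjamini-Hochberg adjustment over the 6 ratios. The other 5 overlapped, with exact permutation p-values of 0.2 or 0.3. Neurog2 to Atoh7 was 0.813 ± 0.1097 in iRGCs and 0.618 ± 0.267 in cRGCs (SD, n = 3), and Neurod4 to Neurod1 was 0.574 ± 0.0390 and 0.380 ± 0.155. Hes6 to its counterpart Hes1 was 2.56 ± 1.06 in iRGCs and 4.52 ± 0.897 in cRGCs, with iRGC replicate 3, at 3.78, above cRGC replicate 2, at 3.52. Insm1 to Hes6 was 0.914 ± 0.0640 and 1.15 ± 0.161, and Gadd45a to Gadd45g 8.98 ± 1.99 and 11.4 ± 2.29.

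Genes whose levels followed each of the 9 most closely over the 6 libraries were sought among 10100 protein-coding genes, by Pearson's r of log2 levels. Since the populations form separate clusters, r mostly reflects their difference, and it is given as a description. Neurog2 was followed most closely by Hes1 (r = 0.9985) and Psrc1 (r = 0.9985), and Olig2 by Sema5b (r = 0.9992) and Dll3 (r = 0.9988). Hes6 went with Ndc80 (r = 0.9995) and Lamp2 (r = 0.9994), and Insm1 with Fancd2 (r = 0.9994) and H2afy (r = 0.9992). Gadd45a went with Cdk4 (r = 0.9998) and Foxp4 (r = 0.9986). Neurod1 went with Adamts1 and Suz12, and Neurod4 with Chst3 and Pdzrn3. The closest genes to Atoh7, Tubg1 (r = 0.9917) and Cr1l, and to Btg1, Nxph4 (r = 0.9917) and Grsf1, were less close than those of the other 7 genes.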

How the data were processed

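The authors aligned the reads of the 6 RNA-seq libraries to mm10 with HISAT2 2.1.0, counted uniquely aligned reads on Ensembl GRCm38 genes with HTSeq 0.11.1 (named with DESeq2 1.26.0 in the submitters' processing notes) and deposited raw counts per gene, 1 table per library. Reads that overlapped several genes stayed uncounted (0.630% to 0.658% of tallied alignments), as did those on no gene (8.21% to 17.1%) and those not unique (26.4% to 33.4%). Symbols, positions and exon lengths came from GENCODE M21 on GRCm38, which named 46488 of the 47069 identifiers, and promoters from RefSeq on GRCm38.p6.

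The test was that of edgeR 4.0.16 in R 4.3.3 (filterByExpr, TMM, quasi-likelihood test, Benjamini-Hochberg adjustment, adjusted p under 0.1), without a block. TMM factors lay between 1.03 and 1.10 for iRGCs and between 0.921 and 0.952 for cRGCs, and the biological coefficient of variation was 36.3%. SEs were the absolute log2 fold change over the square root of F. In simulated data for this comparison (15941 genes, 200 changed 4-fold) edgeR recovered 71.5% of the changed genes and called 0.146% of the unchanged ones. A far larger share of genes, 46.4%, was called in the real data, so these rates do not give the power there. Libraries of a population differed by more than sampling noise (chi-square per degree of freedom at least 25.6).

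The 9 genes, 17 gene lists and 6 ratios were chosen with earlier results of these data known. Some genes are not reported here, in the lists or elsewhere. Lists are described by counts and medians without a set test. Besides the 9 genes, the text names from each list the most abundant gene per kilobase, up to 3 called genes of largest change in each direction and those at 0 in all libraries, the genes of the ratios, the drivers and, for each of the 9, the 2 protein-coding genes of at least 10 CPM with the highest r of log2(CPM + 0.5). Abundance within a list was ranked by the mean over both populations, so another gene may lead in 1 of them. Other list genes in the text were picked with their values in view. Alternatives were DESeq2 1.42.0 and its size factors, limma voom (limma 3.58.1), upper quartile factors, library totals, no filter, at least 10 counts in every library, the replicate block, each library left out, an adjusted p under 0.05, a pseudocount of 5 for ratios and, added later, iRGC replicate 3 alone. Permutation tests used SciPy 1.17.1.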

Additional observations from a re-analysis of the deposited data

How the results depend on the processing

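The 9 genes were called higher in iRGCs under all 16 alternatives run, with adjusted p-values of at most 0.073 (Atoh7 with iRGC replicate 3 alone, edgeR), and no fold change turned its direction. Leaving out 1 library at a time gave log2 fold changes of 1.20 to 1.86 for Atoh7, 1.77 to 2.38 for Neurog2, 1.79 to 2.08 for Neurod1, 2.14 to 3.04 for Neurod4, 2.20 to 3.20 for Olig2, 1.31 to 1.66 for Hes6, 1.08 to 1.24 for Insm1, 1.47 to 1.83 for Gadd45a and 0.83 to 1.15 for Btg1. The move passed 1.5-fold for Neurod4 (1.51) and Olig2 (1.52), both without cRGC replicate 2. Calls over all genes ranged from 5690 with iRGC replicate 3 alone to 7942 with library totals. With the replicate number as a block, 6751 genes and all 9 of the genes described were called, but libraries of the same number did not deviate together (r from -0.06 to -0.01), so the numbers were not taken as pairs, and the block changed no call of the 9. Counts over lists that moved by over 1.5 times were those of small lists. Gadd45, Btg, Tob and Cdk inhibitor genes called lower went from 2 to 1 with library totals, with an adjusted p under 0.05, with iRGC replicate 3 alone and without iRGC replicate 2, cRGC replicate 2 or cRGC replicate 3. Targets of p53 called lower went from 3 to 1 with library totals, with iRGC replicate 3 alone and without iRGC replicate 2. Endothelial and mural genes called higher went from 8 to 3 with limma voom or at least 10 counts in every library and to 4 with iRGC replicate 3 alone. Erythroid genes called higher went from 4 to 2 with DESeq2, to 1 with limma voom or without iRGC replicate 2, and to 0 with at least 10 counts in every library or with iRGC replicate 3 alone. Microglial genes called higher went from 3 to 1 with an adjusted p under 0.05 and without iRGC replicate 2 or iRGC replicate 3, to 5 without iRGC replicate 1, and to 0 with at least 10 counts in every library or with iRGC replicate 3 alone. Pigment epithelium genes called higher went from 0 to 1 with library totals, DESeq2 or limma voom. Oligodendrocyte genes called higher went from 0 to 1 under the 8 settings given beside that list, and those called lower from 1 to 0 under 4 and to 2 without iRGC replicate 1. The causes were not tested. For genes at about 2 CPM or less, such as Neurog1, Olig1 and Btg3, the estimated changes were large but their SEs were too. The main edgeR test called none of these 3, while it called Gadd45b at a similar level. With limma voom, 7 of the 9 Gadd45, Btg, Tob and Cdk inhibitor genes were called higher and 2 lower, Btg3 thus among them. Other proneural factors called higher went from 3 to 4 with DESeq2, limma voom or library totals. They also reached 4 without iRGC replicate 1, iRGC replicate 3 or cRGC replicate 3.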
